A study of Mus musculus with 8 samples.

Results

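The genes described here are 10 genes that mark Muller glia and carry out much of their housekeeping for the retina: Glul, Slc1a3, Aqp4, Kcnj10, Car14, Dkk3, Sox9, Sox2, Lhx2 and Hes1. They were taken from the count table by symbol. All 10 were among its 26824 genes, and all 10 were among the 20167 genes with enough counts to be tested. The table holds RNA sequencing counts of whole retina from mice aged 1 month, in 3 libraries labelled WT (WT 1 to WT 3) and 5 libraries labelled KO (KO 2 to KO 6), where KO stands for a knockout of Kv8.2, the potassium channel subunit encoded by Kcnv2. Each library was made from the pooled 2 retinas of 1 mouse, and no group received a treatment. The strain, the sex and the way the Kcnv2 allele was made are not given in the sources used here. The authors tested 3 WT against 3 KO samples after leaving out 2 KO samples that the series text does not identify, so all 8 libraries were used.

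Muller glia are the main glial cells of the retina and span its whole thickness, in contact with every class of retinal neuron. They take up glutamate released by photoreceptors and bipolar cells and turn it into glutamine, carry potassium and water from the active layers to the vessels and the vitreous, and help to remove carbon dioxide and acid. They also keep several transcription factors of the retinal progenitors from which they arise, and in injured retina they turn on the filament gene Gfap. Kv8.2 itself belongs to photoreceptors, where it joins other Kv subunits and forms no channel alone.

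Kcnv2 served as the check of the labels. Its transcript was present in all libraries, at 519 to 551 counts per 1e+06 library counts (CPM, here after TMM scaling, edgeR's correction for library composition) in WT. KO 2, at 585 CPM, was above WT, while KO 3 to KO 6 were below it at 447, 398, 409 and 409 CPM. Its log2 fold change was -0.24 (SE 0.14, edgeR adjusted p = 0.275, from a quasi-likelihood test with the Benjamini-Hochberg correction over all genes) with all 8 libraries. Without KO 2 it was called lower, at -0.35 (edgeR adjusted p = 0.0298), in a fit that called 6.23% of all tested genes lower. With all 8 libraries, limma voom with quality weights also called it lower, at -0.36 (voom adjusted p = 0.00116). That test called 20.6% of all tested genes lower. The outcome thus depends on KO 2 and on the test. The libraries held 17759146 to 25188870 counts. KO 4, KO 5 and KO 6 stood apart from the other 5 libraries on the first principal component, which held 43.6% of the variance, and had 3.03% to 3.70% of their counts in mitochondrial genes against 5.23% to 7.92% elsewhere. In KO 3, 5.10% of the counts came from 14 lens genes, against at most 0.149% in any other library. Values for KO 2 and KO 3 alone against WT are therefore given for all 10 genes and for the called genes of the wider lists.

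Of the 10 Muller glia genes, Sox9 and Kcnj10 rose in the libraries labelled KO and none fell in the fit of all 8 libraries. That is 2 of 10 higher, where 4.74% of all tested genes were higher and 2.84% lower (7.58% in either direction) at an adjusted p-value under 0.05. The fold change was positive for 9 of the 10, with a median log2 fold change of 0.24, against 0.00073 over all tested genes. In 4 of the 10 (Slc1a3, Kcnj10, Sox9 and Sox2) every library labelled KO lay above every WT library, as did 10.8% of all tested genes. None lay wholly below, as 10.1% of all tested genes did. In bulk retina a different number of Muller glia and a different amount of RNA in each cell cannot be told apart.

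The sequences before the start sites of 4 of these genes are shown because 3 of them (Slc1a3, Kcnj10 and Sox2) had every library labelled KO above WT, while the fourth, Glul, is the most abundant and overlapped between the groups. Each is the 250 bases upstream of the RefSeq start on GRCm38.p6, written 5′ to 3′ on the gene's strand. The windows are chr15:8710808-8711057 (minus strand) for Slc1a3, chr1:172340960-172341209 (plus) for Kcnj10, chr3:34649745-34649994 (plus) for Sox2 and chr1:153899679-153899928 (plus) for Glul. Capitals mark the letters of 4 motifs searched on both strands: TTCNNNGAA (the STAT site), ACAAT (SOX), TGGGAA (RBPJ) and CCAAT (the CCAAT box). None of these motifs contains another.
Slc1a3: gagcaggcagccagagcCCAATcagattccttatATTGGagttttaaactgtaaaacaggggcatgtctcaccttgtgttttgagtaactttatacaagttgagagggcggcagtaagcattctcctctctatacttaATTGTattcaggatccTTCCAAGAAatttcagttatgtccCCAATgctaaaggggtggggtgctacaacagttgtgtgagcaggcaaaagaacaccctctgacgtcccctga
Kcnj10: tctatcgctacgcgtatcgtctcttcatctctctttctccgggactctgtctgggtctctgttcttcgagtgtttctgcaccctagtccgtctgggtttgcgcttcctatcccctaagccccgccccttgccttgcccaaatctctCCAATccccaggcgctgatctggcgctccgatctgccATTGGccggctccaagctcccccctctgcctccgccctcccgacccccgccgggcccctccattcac
Sox2: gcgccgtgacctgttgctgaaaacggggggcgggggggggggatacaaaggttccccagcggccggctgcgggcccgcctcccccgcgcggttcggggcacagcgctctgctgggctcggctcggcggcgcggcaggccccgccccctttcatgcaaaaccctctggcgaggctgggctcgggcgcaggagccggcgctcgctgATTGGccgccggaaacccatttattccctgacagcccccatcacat
Glul: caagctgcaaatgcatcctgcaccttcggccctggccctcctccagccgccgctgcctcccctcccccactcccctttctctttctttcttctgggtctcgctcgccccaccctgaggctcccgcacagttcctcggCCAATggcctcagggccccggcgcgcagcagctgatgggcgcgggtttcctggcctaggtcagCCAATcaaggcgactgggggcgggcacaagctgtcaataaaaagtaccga
The Slc1a3 window held TTCCAAGAA, 96 to 88 bases before the start, and also ATTGT, the SOX motif on the other strand, and 3 CCAAT boxes. Kcnj10 and Glul each held 2 CCAAT boxes, and Sox2 held 1. Among 32817 RefSeq promoter windows of this length, 7.01% held the STAT letters, 27.7% the SOX letters, 21.6% the RBPJ letters and 33.8% a CCAAT box. RefSeq entries were used for 6 of the 10 genes. The other two matched genes were Lhx2, whose 2 promoters each held TGGGAA, and Car14, where none of the 4 motifs was found. Aqp4, Dkk3, Sox9 and Hes1 had no entry. These letter matches describe the sequences and were not tested for binding.

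Glutamate recycling was represented by Slc1a3 and Glul. Slc1a3 (ENSMUSG00000005360, chr15:8634124-8710764, minus strand of GRCm38) encodes GLAST, the glutamate transporter of Muller glia. Slc1a3 stood at 171, 181 and 177 CPM in the WT libraries 1 to 3 and at 278, 186, 221, 213 and 194 CPM in the KO libraries 2 to 6. All 5 libraries labelled KO were above the highest WT library, although KO 3 was so by a narrow margin. Its log2 fold change of 0.31 (SE 0.13, 95% interval 0.02 to 0.60) did not pass the threshold, with an adjusted p-value of 0.159 in edgeR's quasi-likelihood test. It was 0.40 in KO 2 and KO 3 alone (edgeR adjusted p = 0.232).

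Glul (ENSMUSG00000026473, chr1:153899944-153909723, plus strand) encodes glutamine synthetase, the enzyme that turns the captured glutamate into glutamine. Glul stood at 2391, 2552 and 2375 CPM in the WT libraries 1 to 3 and at 3655, 2349, 2335, 2638 and 2365 CPM in the KO libraries 2 to 6. KO 2 was far above the others, KO 5 was slightly above WT, and the remaining 3 libraries labelled KO lay below the lowest WT library. The groups overlapped, with a log2 fold change of 0.13 (SE 0.15, 95% interval -0.21 to 0.47, edgeR adjusted p = 0.623). Without KO 2 it was -0.0096. Other gene models contain 20.4% of the 31-base words of the Glul transcripts, mainly the pseudogene Glns-ps1, so part of its counts could depend on how such reads were assigned.

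Kcnj10 and Aqp4 encode the potassium and water channels of the Muller glia endfeet. Kcnj10 (ENSMUSG00000044708, chr1:172341210-172374085, plus strand) encodes Kir4.1, the main inward rectifier of these cells. Kcnj10 stood at 56.1, 54.6 and 62.6 CPM in the WT libraries 1 to 3 and at 101, 65.7, 82.2, 91.4 and 80.7 CPM in the KO libraries 2 to 6. KO 3 was the lowest of the libraries labelled KO and still above WT 3, the highest WT library. On average it rose from 57.8 ± 4.22 CPM (SD, n = 3) to 84.2 ± 13.1 CPM (SD, n = 5), a 1.46-fold difference. On the log2 scale this was 0.54 (SE 0.13, 95% interval 0.26 to 0.83), with an edgeR adjusted p-value of 0.0344. KO 2 and KO 3 alone gave a log2 fold change of 0.53 (edgeR adjusted p = 0.158), without a call.

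Aqp4 (ENSMUSG00000024411) encodes aquaporin-4, which is anchored in the same endfoot membrane. Aqp4 stood at 142, 138 and 131 CPM in the WT libraries 1 to 3 and at 198, 142, 130, 133 and 125 CPM in the KO libraries 2 to 6. Apart from KO 2, the libraries labelled KO lay within or just outside the range of WT. The log2 fold change was 0.09 (SE 0.15, 95% interval -0.24 to 0.41, edgeR adjusted p = 0.744), and it was -0.048 without KO 2, 0.31 in KO 2 and KO 3 alone and 0.28 with an offset for GC content (edgeR adjusted p = 0.132). Kcnj10 and Aqp4 thus had different values in the same libraries: KO 4 to KO 6 were all above WT for Kcnj10 and 125 to 133 CPM for Aqp4. The difference between these genes was not tested.

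Car14 (ENSMUSG00000038526, chr3:95897768-95904691, minus strand) encodes a membrane-bound carbonic anhydrase that faces the extracellular space. Car14 stood at 51.4, 57.5 and 43.7 CPM in the WT libraries 1 to 3 and at 49.8, 62.6, 44.4, 54.7 and 58.3 CPM in the KO libraries 2 to 6. The groups overlapped, KO 2 was not the highest library, and the log2 fold change was 0.08 (SE 0.13, 95% interval -0.19 to 0.36, edgeR adjusted p = 0.703), and 0.14 in KO 2 and KO 3 alone (edgeR adjusted p = 0.617). Aph1a, on the opposite strand, shares 445 exonic bases with Car14, and whether the counts used strand is not given in the sources used here. Aph1a had a log2 fold change of 0.06.

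Dkk3 (ENSMUSG00000030772, chr7:112116017-112159057, minus strand) encodes a secreted protein of the Dickkopf family. Dkk3 stood at 857, 883 and 883 CPM in the WT libraries 1 to 3 and at 1393, 1105, 921, 1018 and 856 CPM in the KO libraries 2 to 6. In 4 of the 5 libraries labelled KO it was above every WT library, and in KO 6 it was just below the lowest. Over all libraries the log2 fold change was 0.28 (SE 0.15, 95% interval -0.06 to 0.61, edgeR adjusted p = 0.268). KO 2 and KO 3 alone gave 0.52 (edgeR adjusted p = 0.148), whereas it was 0.16 without KO 2 and 0.10 without KO 2 and KO 3.

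**Figure D1:**
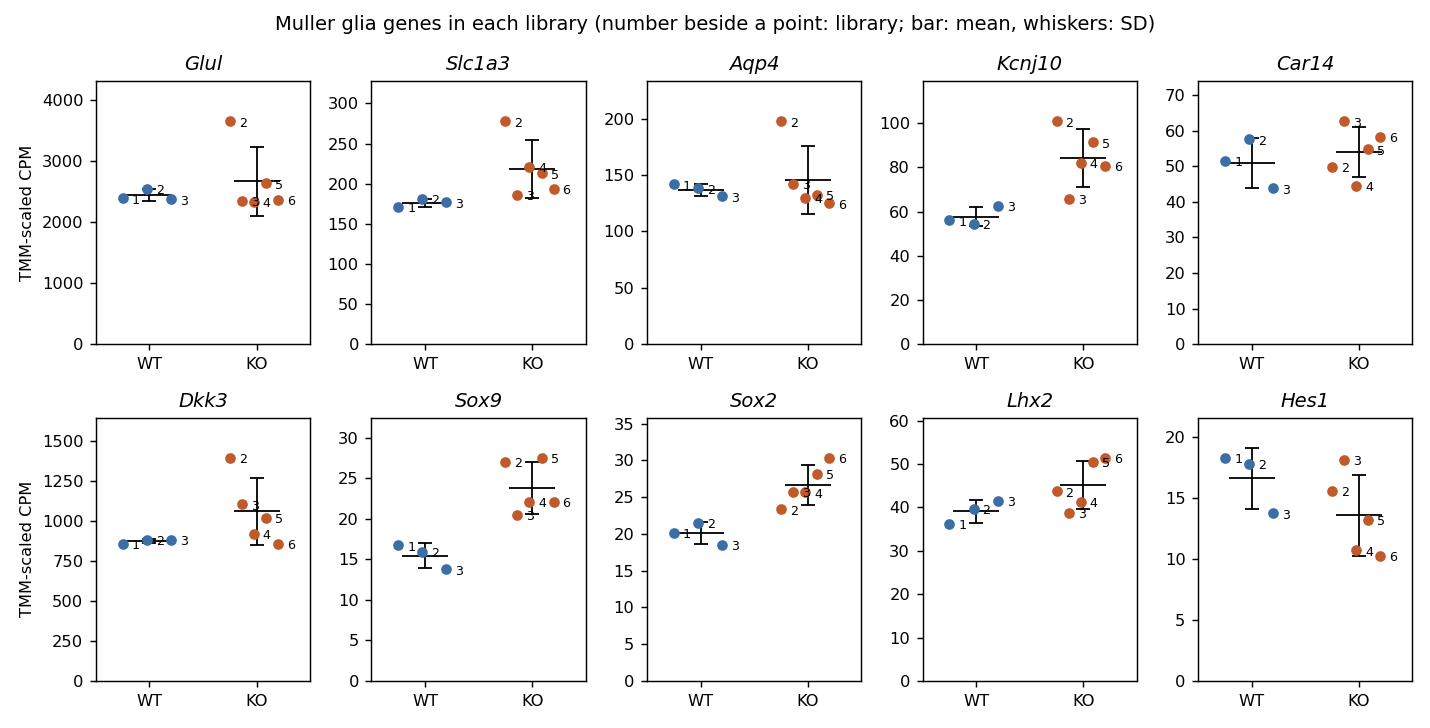
TMM-scaled CPM of the 10 Muller glia genes in each of the 3 WT and 5 KO libraries, with 1 panel for each gene and its own y axis from 0. Points are libraries, numbered as labelled, and the bar with whiskers is the mean and SD of the group. All points labelled KO lie above all WT points for Slc1a3, Kcnj10, Sox9 and Sox2, and KO 2 is the highest point for Glul, Slc1a3, Aqp4, Kcnj10 and Dkk3.

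The remaining 4 genes encode transcription factors. Sox9 (ENSMUSG00000000567, chr11:112782224-112787760, plus strand) is needed to specify and keep the Muller glia fate. Sox9 stood at 16.7, 15.9 and 13.8 CPM in the WT libraries 1 to 3 and at 27.0, 20.4, 22.1, 27.5 and 22.0 CPM in the KO libraries 2 to 6. The lowest library labelled KO, KO 3, was above the highest WT library. On average it rose from 15.5 ± 1.52 CPM (SD, n = 3) to 23.8 ± 3.21 CPM (SD, n = 5), a 1.54-fold difference. Its log2 fold change was 0.62 (SE 0.13, 95% interval 0.33 to 0.92), the largest of the 10, with an edgeR adjusted p-value of 0.0269. It was 0.62 in KO 2 and KO 3 alone (edgeR adjusted p = 0.102).

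Sox2 (ENSMUSG00000074637, chr3:34650405-34652461, plus strand) is a progenitor factor that mature Muller glia keep and that some amacrine cells also express. Sox2 stood at 20.2, 21.5 and 18.5 CPM in the WT libraries 1 to 3 and at 23.4, 25.7, 25.7, 28.2 and 30.3 CPM in the KO libraries 2 to 6. No library labelled KO reached down to the WT range, and KO 2, the highest library for 5 other genes, was the lowest of the 5 here. Sox2 had a log2 fold change of 0.41 (SE 0.11, 95% interval 0.16 to 0.66), and its edgeR adjusted p-value of 0.0527 missed the threshold. In KO 2 and KO 3 alone it was 0.29 (edgeR adjusted p = 0.226). Sox2 lies inside the long non-coding gene Sox2ot on the same strand, with no shared exonic bases in the annotation. Sox2ot had 46.6 CPM in KO 3 and 8.86 to 13.4 CPM in the other libraries. Whether reads of Sox2ot add to the Sox2 value of KO 3, at 25.7 CPM, was not tested.

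Lhx2 (ENSMUSG00000000247, chr2:38339281-38369733, plus strand) is a LIM homeobox factor of the eye field and of Muller glia. Lhx2 stood at 36.2, 39.6 and 41.5 CPM in the WT libraries 1 to 3 and at 43.7, 38.8, 41.3, 50.5 and 51.4 CPM in the KO libraries 2 to 6. In 3 of 5 libraries labelled KO it was above every WT library and in the other two it was within the WT range. The log2 fold change was 0.21 (SE 0.11, 95% interval -0.04 to 0.45, edgeR adjusted p = 0.253), and an offset for GC content turned it to -0.024. KO 2 and KO 3 alone gave 0.077 (edgeR adjusted p = 0.734), while without them Lhx2 was called higher, at 0.30 (edgeR adjusted p = 0.0183), in a fit that called 22.3% of all tested genes higher.

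Hes1 (ENSMUSG00000022528, chr16:30064384-30067796, plus strand) is a repressor that Notch signalling switches on. It was the only one of the 10 genes with a negative log2 fold change, at -0.29 (SE 0.20, 95% interval -0.72 to 0.14, edgeR adjusted p = 0.365). Hes1 stood at 18.3, 17.8 and 13.7 CPM in the WT libraries 1 to 3 and at 15.6, 18.1, 10.7, 13.2 and 10.2 CPM in the KO libraries 2 to 6. KO 4, KO 5 and KO 6 lay below every WT library, while KO 2 and KO 3 lay within the WT range. KO 2 and KO 3 alone gave a log2 fold change of 0.025 (edgeR adjusted p = 0.953), so the negative value rests on the 3 libraries that stood apart. Without KO 2 and KO 3 it was called lower, at -0.53 (edgeR adjusted p = 0.00733), in a fit that called 8416 genes.

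The fit of KO 2 and KO 3 against WT called 0 of the 10 genes with edgeR's quasi-likelihood test. It called 0.891% of all tested genes (0.624% higher and 0.267% lower), and 5 of the 10 genes had an unadjusted p under 0.05, where 19.0% of all tested genes did. All 10 log2 fold changes were positive there, with a median of 0.31. On the log2 scale, from all libraries to this fit, Dkk3 went from 0.28 to 0.52, Aqp4 from 0.09 to 0.31 and Glul from 0.13 to 0.30. Both fits use the same WT libraries and KO 2 and KO 3, so the values are given side by side and are not independent. The calls of Sox9 and Kcnj10 also ended when WT 1, WT 2, WT 3, KO 4 or KO 5 was left out, and that of Kcnj10 without KO 6. Over the 8 fits that left out 1 library, the log2 fold changes were 0.55 to 0.68 for Sox9 and 0.47 to 0.63 for Kcnj10. The fit without KO 2 and KO 3 called Sox9 (0.64), Kcnj10 (0.56), Sox2 (0.50), Lhx2 (0.30) and Slc1a3 (0.26) higher and Hes1 (-0.53) lower. That fit called 22.3% of all tested genes higher and 20.5% lower.

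**Figure D2:**
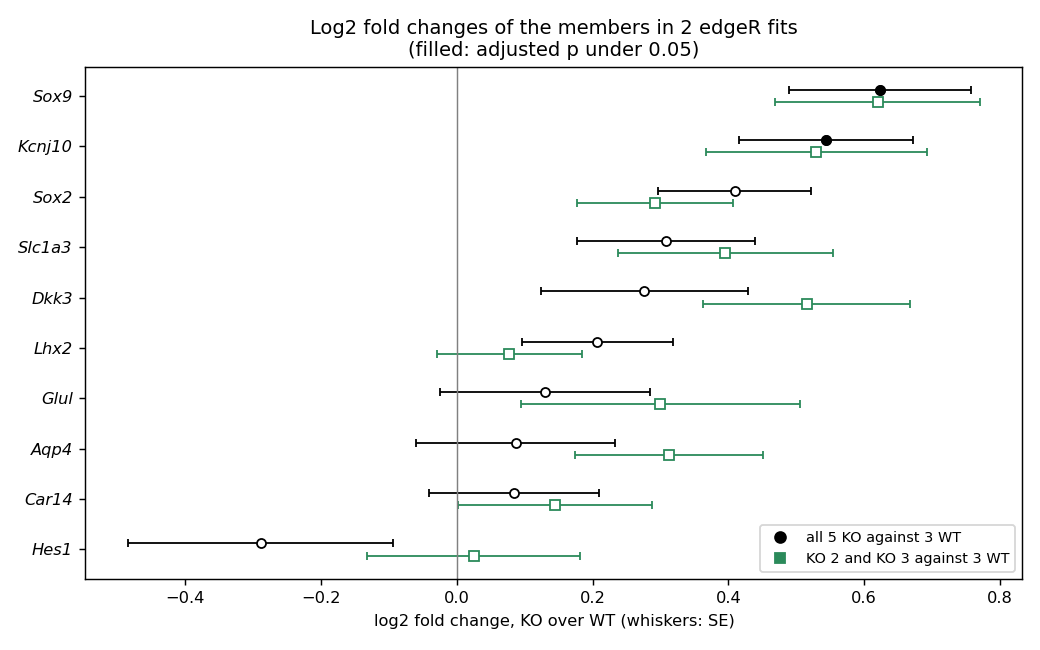
Log2 fold change of the libraries labelled KO over WT for each of the 10 genes, with SE as whiskers, from edgeR with all 8 libraries (circles) and with KO 2 and KO 3 against the 3 WT libraries (squares). Filled symbols have an adjusted p-value under 0.05. Sox9 (0.62) and Kcnj10 (0.54) are filled only for all 8 libraries, and Hes1 lies at -0.29 with all libraries and at 0.025 with KO 2 and KO 3.

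Ordered by CPM per 1000 bases of the longest annotated transcript, the levels in WT ran from Glul at 874 ± 35.0 (SD, n = 3) through Dkk3 at 260 ± 4.55 and Slc1a3 at 39.8 ± 1.08 to Car14 at 29.8 ± 4.04 and Aqp4 at 27.1 ± 1.05. Lhx2 (13.8 ± 0.946), Hes1 (11.3 ± 1.70), Kcnj10 (10.7 ± 0.781), Sox2 (9.75 ± 0.724) and Sox9 (3.74 ± 0.369) followed. The enzyme of glutamine synthesis was thus the most abundant transcript per length and Sox9 the least. The WT ranges of Car14 and Aqp4, of Hes1 and Kcnj10, and of Kcnj10 and Sox2 overlapped, and all other neighbours were apart. In the libraries labelled KO the first 6 places were the same. Kcnj10 (15.6 ± 2.43, SD, n = 5) came next, followed by Sox2 (13.0 ± 1.30), Hes1 (9.24 ± 2.26) and Sox9 (5.76 ± 0.777). Hes1 therefore stood ahead of Kcnj10 and Sox2 in WT and behind both in the libraries labelled KO, but its range overlapped with theirs in both groups. Car14 and Aqp4, Lhx2 and Kcnj10, and Kcnj10 and Sox2 also overlapped in the libraries labelled KO.

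The libraries labelled KO varied more among themselves than the WT libraries for 9 of the 10 genes, as the coefficient of variation (CV, the SD as a percentage of the mean) shows. For Glul the CV was 4.01% in WT and 21.2% in the libraries labelled KO, for Aqp4 3.86% and 20.6%, and for Dkk3 1.75% and 19.8%. Car14 had 13.6% and 13.2%. Over all genes with at least 20 counts in a pair of libraries, squared differences averaged 8.20 to 17.8 times the counting noise between WT libraries. They averaged 5.85 to 6.92 times it among KO 4 to KO 6, and 44.0 to 116 times it in KO pairs with KO 2 or KO 3. The wide spread of KO 2 and KO 3 was thus not particular to the 10 genes. KO 2 had the highest value of all 8 libraries for 5 genes (Glul, Slc1a3, Aqp4, Kcnj10 and Dkk3). The 10 genes together took 0.384% to 0.392% of the counts in WT, 0.529% in KO 2, 0.430% in KO 5 and 0.391% to 0.393% in KO 3, KO 4 and KO 6. Their summed share of all counts was thus above WT by a clear margin in KO 2 and KO 5, and Glul makes up most of it. In KO 3, where 5.10% of all counts came from lens genes, the shares of other genes are lowered by these counts.

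Dividing by the Glul counts of the same library removes what these genes share with Glul, and the resulting ratios are given as a description. Per 1000 Glul counts there were 72.3 ± 1.79 of Slc1a3 in WT (SD, n = 3) and 82.5 ± 7.11 in the libraries labelled KO (SD, n = 5). Kcnj10 had 23.7 ± 2.48 and 31.9 ± 3.78 in the same order, and Sox9 had 6.34 ± 0.607 and 9.06 ± 1.12. For these 3 of 9 genes every library labelled KO was above every WT library, as was so for 2.05% of all tested genes divided by Glul in the same way. Without the division that share was 10.8%. Glul was highest in KO 2, at 3655 CPM, which lowers the ratios of all genes in that library. Slc1a3, Kcnj10 and Sox9 were themselves above WT in KO 2, so this contrast depends on the choice of Glul as divisor. The ratio of Aqp4 was 56.2 ± 2.67 in WT and 54.7 ± 3.87 in the libraries labelled KO, with overlapping groups. Sox2, Dkk3, Car14, Lhx2 and Hes1 overlapped too, and for Sox2 only KO 2, at 6.39 per 1000 Glul counts, lay outside a range of 10.7 to 12.8 in KO 3 to KO 6 that was above WT (7.80 to 8.44).

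**Figure D3:**
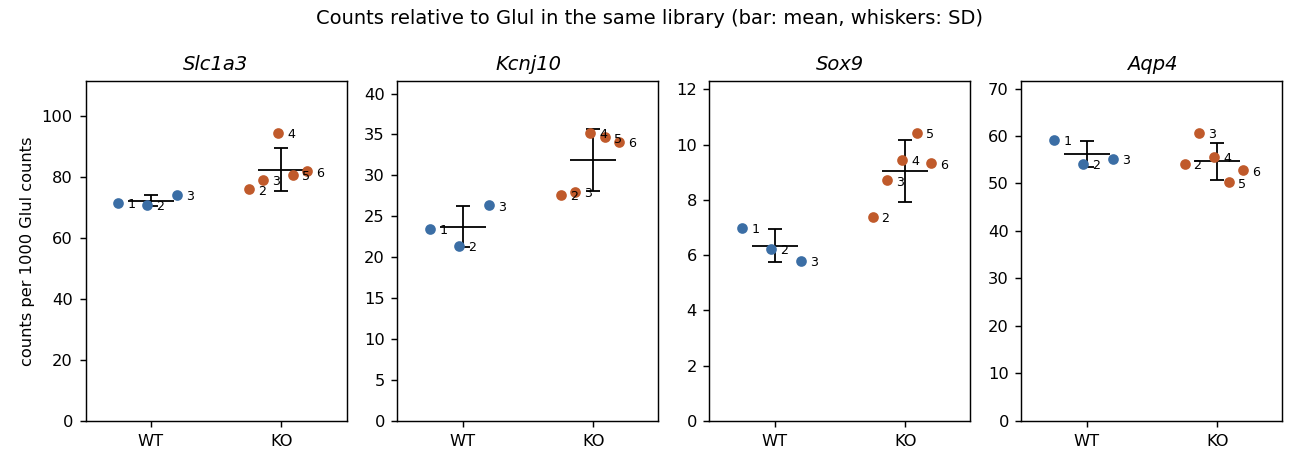
Counts of Slc1a3, Kcnj10, Sox9 and Aqp4 per 1000 Glul counts of the same library, for 3 WT and 5 KO libraries. Points are libraries numbered as labelled, and the bar with whiskers is the mean and SD of the group. KO libraries are all above WT for Slc1a3, Kcnj10 and Sox9, while Aqp4 overlaps at 54.7 in KO and 56.2 in WT.

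Wider lists of 72 genes with related roles were read from the same fit. Of these, 66 were tested, 14 were higher in the libraries labelled KO (4.74% of all tested genes were) and 0 were lower in edgeR's quasi-likelihood test (33 of the 66 had an unadjusted p under 0.05 in either direction, as did 27.3% of all tested genes). The median log2 fold change was 0.26. In KO 2 and KO 3 against WT, which shares these libraries, 3 wider genes were called: Clu of the 14, at 1.20 (edgeR adjusted p = 0.00701), and 2 others. These were Sntb1, which encodes a dystrophin-associated protein, at 0.68 (edgeR adjusted p = 0.0272), and Slc7a11, the cystine and glutamate exchanger, at 0.73 (edgeR adjusted p = 0.0473), both named after their values were seen. There the log2 fold changes of the rest of the 14 were 0.42 for Slc1a2, 0.44 for Mlc1, 0.39 for Dag1, 1.26 for Trpv4, 0.93 for Mfge8, 0.76 for Crym and 0.47 for Abca8a. Kremen1 had 0.51, Nfia 0.69, Nfib 0.62, Notch1 0.51, Notch2 0.53 and Sox8 0.48 in the same fit. Leaving out any 1 WT library left 2 calls, Clu and Crym. Without WT 1, WT 2 or WT 3, 0.424%, 0.417% and 0.658% of all tested genes were higher. Leaving out KO 3 gave 27 higher (12.2% of all tested genes were). Leaving out KO 2 and KO 3 gave 34 higher and 10 lower, in a fit that called 22.3% of all tested genes higher and 20.5% lower.

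Among 9 tested genes of glutamate and ammonia handling, Slc1a2 rose (log2 fold change 0.63, edgeR adjusted p = 0.0210). It encodes the glutamate transporter GLT-1, which in retina is mainly neuronal, and its values were 245 to 247 CPM in WT and 305 to 417 CPM in the libraries labelled KO. Slc38a3, an abundant glutamine transporter, had 0.41 (edgeR adjusted p = 0.166).

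Of 10 tested genes around the water and potassium channels, 3 rose (4.74% of all tested genes did). Mlc1, which encodes a membrane protein of glial endfeet, had a log2 fold change of 0.50 (edgeR adjusted p = 0.0295). Dag1, which encodes dystroglycan, an anchor of Kir4.1 and aquaporin-4 at the endfeet, had 0.31 (edgeR adjusted p = 0.0395). Trpv4, a cation channel that responds to swelling, had 1.27 (edgeR adjusted p = 0.0340) with low levels of 0.938 ± 0.282 CPM in WT (SD, n = 3) and 2.29 ± 0.559 CPM under the KO label (SD, n = 5). Dmd, dystrophin, had -0.25 (edgeR adjusted p = 0.205).

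In the acid-base and lactate list 0 of 7 tested genes were called with edgeR, and 3 had an unadjusted p under 0.05 (27.3% of all tested genes did). Bsg, the partner of the lactate transporters, had 0.29 (edgeR adjusted p = 0.121) with every library labelled KO above WT, and Car2, the cytosolic carbonic anhydrase, had -0.17 (edgeR adjusted p = 0.284) with every library labelled KO below WT. Slc16a1, a lactate transporter named after its values were seen, also had every library labelled KO below WT, at -0.27 (edgeR adjusted p = 0.0990). The median of this list was -0.04.

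Other Muller glia identity genes gave 4 calls among 12, all higher, where 4.74% of all tested genes were. Clu, the secreted chaperone clusterin, rose from a WT mean of 338 ± 20.9 CPM (SD, n = 3) to 737 ± 57.4 CPM (SD, n = 5), a log2 fold change of 1.12 (edgeR adjusted p = 0.000726). Mfge8, a secreted bridging protein for phagocytosis, rose by 1.03 (edgeR adjusted p = 0.00863), Crym, a thyroid hormone binding protein, by 0.87 (edgeR adjusted p = 0.00451) and Abca8a, a lipid transporter, by 0.51 (edgeR adjusted p = 0.0269), all as log2 fold changes. Apoe, a lipid carrier, had 0.46 (edgeR adjusted p = 0.0738), and Rlbp1, the retinaldehyde binding protein of the visual cycle, had 0.27 (edgeR adjusted p = 0.160).

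Of 8 tested Dickkopf and Wnt genes, Kremen1, a Dickkopf receptor, rose by 0.83 on the log2 scale (edgeR adjusted p = 0.0159). Lrp6, a Wnt coreceptor, had -0.07 (edgeR adjusted p = 0.758) and Axin2, a Wnt target, had 0.18 (edgeR adjusted p = 0.331).

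Progenitor and glial regulators gave 5 calls among 20 tested, all higher, where 4.74% of all tested genes were. Nfia (log2 fold change 0.72, edgeR adjusted p = 0.0144) and Nfib (0.56, edgeR adjusted p = 0.0243) encode nuclear factor I proteins that take part in late retinal and glial development. The receptors Notch1 (1.11, edgeR adjusted p = 0.0334) and Notch2 (0.78, edgeR adjusted p = 0.0150) rose, and so did Sox8 (0.64, edgeR adjusted p = 0.0170), a relative of Sox9. Notch1 was 30.6 and 35.2 CPM in KO 2 and KO 3, against 20.4 to 28.5 CPM in WT and 56.0 to 66.2 CPM in KO 4 to KO 6, and its log2 fold change in KO 2 and KO 3 alone was 0.51 (edgeR adjusted p = 0.165). Pax6, a homeobox factor of progenitors that certain retinal neurons also keep, had 0.04 (edgeR adjusted p = 0.816).

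**Figure D4:**
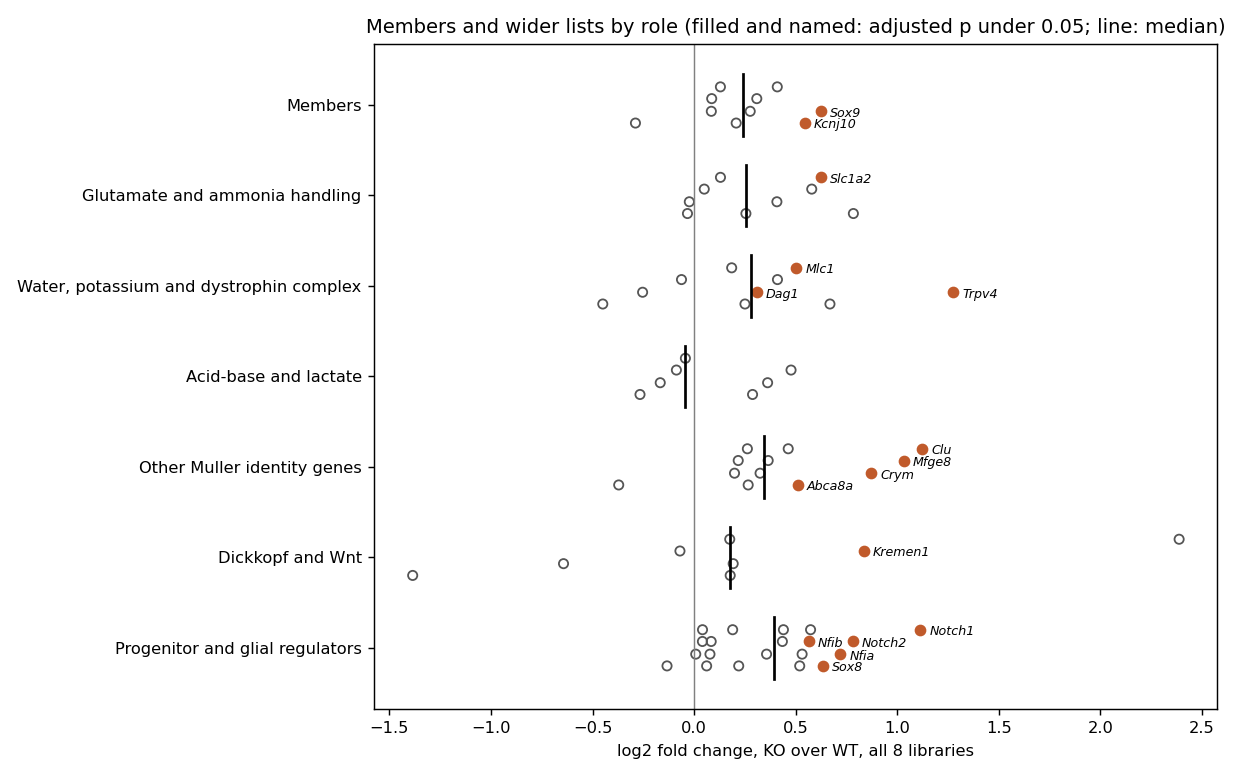
Log2 fold change of the libraries labelled KO over WT in all 8 libraries, for the 10 Muller glia genes and 6 wider lists by role. Each circle is a gene, vertical offsets only separate the circles, filled and named circles have an edgeR adjusted p-value under 0.05, and the black line is the median of the list. All 16 filled circles lie to the right of 0, and the acid-base and lactate list has none and a median of -0.04.

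Markers of the cells in the tissue were read beside these results, in a fit where 4.74% of all tested genes were higher and 2.84% lower. The 8 Muller glia markers, which include 4 of the 10 genes, were each above 120 CPM in every library and took 0.504% to 0.514% of counts in WT and 0.553% to 0.715% in the libraries labelled KO, with 2 of 8 called higher. Astrocytes share Slc1a3, Aqp4, Kcnj10 and Sox9 with Muller glia. Of 6 astrocyte markers 1, Gfap, was called (20.1 to 63.8 CPM, edgeR adjusted p = 0.000382), and reactive Muller glia express it too. The list took 0.00942% to 0.0103% of counts in WT and 0.0160% to 0.0183% in the libraries labelled KO. Pax2, which defines retinal astrocytes, was at 0.274 to 0.666 CPM in WT and 0.295 to 0.808 CPM in the libraries labelled KO, where 3 counts equal 0.130 to 0.164 CPM, so it was low in both groups. The log2 fold change was positive for 5 of the 6 (median 0.42): beside Gfap, Aldh1l1 had 0.78, Igfbp5 0.49 with every library labelled KO above WT, Pdgfra 0.36 and Pax2 0.36, and S100b had -0.14. None of these 5 was called.

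Markers of other cells were read in the same way, beside the same 4.74% higher and 2.84% lower. Of 8 endothelial and pericyte markers 2 were higher (0.0697% to 0.0699% of counts in WT and 0.0686% to 0.110% in the libraries labelled KO), and of 8 microglial markers 2 were higher (0.00540% to 0.00572% and 0.00599% to 0.00759%). The log2 fold change was positive for 8 of 8 endothelial and pericyte markers (median 0.37) and for 7 of 8 microglial markers (median 0.43). Of 8 cone markers 3 were lower (0.0903% to 0.111% in WT and 0.0582% to 0.0787% in the libraries labelled KO), and 2 of 8 had a positive log2 fold change (median -0.53). No marker of these 3 lists was at 0 in any library. Amacrine and horizontal cell markers, of interest because some amacrine cells express Sox2, took 0.0746% to 0.0753% of counts in WT and 0.0695% to 0.0831% in the libraries labelled KO, with 1 of 8 (Calb1) lower. Of 8 bipolar cell markers 1 (Gpr179) was higher (0.119% to 0.128% of counts in WT and 0.108% to 0.137% in the libraries labelled KO), and none of the 8 rod, 8 ganglion cell, 8 pigment epithelium and 14 lens markers was called with edgeR (4, 2, 2 and 0 had an unadjusted p under 0.05, as did 27.3% of all tested genes). The part of these cells, of the mitochondrial share and of lens RNA in the values of the 10 genes was not tested. Fgf2, a growth factor that injured retina makes, rose from 40.3 ± 2.55 CPM (SD, n = 3) to 170 ± 32.1 CPM (SD, n = 5; edgeR adjusted p = 0.000142).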

How the data were processed

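Total RNA of dissected retinas was sequenced, 1 library for each mouse. The table that the authors deposited gives read counts, not normalized and in whole numbers, by gene under Ensembl identifiers and symbols. The submitters' processing notes name Trim Galore, Salmon 1.10.2, DESeq2 and GRCm38. How these were used, the annotation, strand and any rounding are not given in the sources used here. Counts were scaled by TMM, filtered with filterByExpr and tested with edgeR 4.0.16 (quasi-likelihood test, R 4.3.3, Benjamini-Hochberg over 20167 genes, called under 0.05) in 3 WT against 5 KO libraries, with no covariate. Alternatives were DESeq2 size factors, library size alone, other filters, DESeq2 1.42.0, limma voom 3.58.1 with quality weights, robust estimation, an offset for GC content in 20 bins, fits without each library or pair of KO libraries, and KO 2 and KO 3 alone. Gene positions, lengths and shared 31-base words came from GENCODE M21 (22121 identifiers matched), and promoters from RefSeq. Steps were tested on simulated data. Depth was 17759146 to 25188870 counts, at which 3 counts equal 0.130 to 0.164 scaled CPM; floors cover counting error only. No 2 libraries of a group agreed within sampling noise. The genes, lists and tests were chosen with earlier results of these data known. Named genes are the 10 genes, Kcnv2, Gfap, Fgf2, every called gene of the wider lists and the 2 most abundant uncalled genes of each, a few of which are not reported here; Sox2ot and Aph1a were named for their overlap, and Pax2, S100b, Aldh1l1, Igfbp5 and Pdgfra as markers, with the called markers of neurons.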

Additional observations from a re-analysis of the deposited data

Results flagged for a closer look

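Among the 5 libraries labelled KO, KO 2 stood far above the rest for Glul, at 3655 CPM, where its gap to the next library was 0.728 of the whole range of log2 CPM. For Aqp4 in KO 2, at 198 CPM, the same share was 0.713. Both are just past the limit of 0.71 for 5 samples. The 10 genes were each looked at in the 5 libraries labelled KO, 2 were past the limit, and chance puts about 1 in 20 groups past it. Without KO 2 the log2 fold changes were -0.0096 for Glul and -0.048 for Aqp4. The other genes for which KO 2 was the highest library (Slc1a3, Kcnj10 and Dkk3) were not past the limit.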

How the results depend on the processing

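Sox9 and Kcnj10 were called in all 8 fits with another scaling, filter, test, robust estimation or GC offset, and Sox2 in 4 of these 8. In place of 1529 genes, DESeq2 called 3066 and limma voom 8248 (18.2% and 40.9% of those tested). Voom called 6 of the 10, 5 higher and Hes1 lower (-0.50, adjusted p = 0.0128), and Kcnv2 lower (-0.36). Leaving out 1 library gave 132 to 3992 genes and 0 to 4 of the 10: 0 without WT 1, WT 2, WT 3, KO 4 or KO 5 (3 of 10 at an unadjusted p under 0.05 in edgeR, as were 18.8% to 22.9% of all tested genes), 1 without KO 6 (Sox9; 2.68% of all tested genes), 3 without KO 2 (with Sox2; 13.9%) and 4 without KO 3 (with Sox2 and Slc1a3; 20%). Leaving out KO 2 and KO 3 gave 8416 genes (42.8%) and 6 of the 10, 5 higher and Hes1 lower. Leaving out KO 2 with KO 4, KO 5 or KO 6 gave 399, 496 and 645 genes, and KO 4 and KO 5, KO 4 and KO 6, or KO 5 and KO 6 gave 118, 191 and 203, with 0 of the 10 called by edgeR in each of these 6 fits and 3 to 5 at an unadjusted p under 0.05 (17.1% to 27.3% of all tested genes). Leaving out KO 3 with KO 4, KO 5 or KO 6 gave 2540, 2225 and 2593 genes (13%, 11.3% and 13.3% of all tested genes). These fits called 2, 2 and 3 of the 10 higher, with Sox9 and Kcnj10 in each, where 8.38%, 7.35% and 8.44% of all tested genes were higher. KO 2 and KO 3 against WT gave 180 genes and 0 of the 10. Of the wider lists, in place of 14 higher and 0 lower, DESeq2 called 26 and 1 (11.8% and 6.42% of all tested genes). Voom called 34 and 9 (20.3% and 20.6%), and the fit without KO 2 called 17 and 1 (7.66% and 6.23%). The fit without KO 4 called 7 and 0 (1.28% and 0.559%), and so did that without KO 5 (1.31% and 0.632%). Without KO 6 it was 9 and 0 (1.73% and 0.949%). The GC offset called 15 higher (4.17% of all tested genes were) and kept 12 of the 14 (not Dag1 or Trpv4). Library size alone lost Notch1 and no filter lost Dag1.

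Both groups have libraries numbered 2 and 3, but nothing in the labels pairs their mice. Libraries that share a number deviated from their groups with r = -0.24 across 20167 genes. In edgeR fits of these 4 libraries, the replicate block gave 52 genes, no block 14 and the crossed pairing, added after seeing the data, 527, each with 0 of the 10 called and 2 of them at an unadjusted p under 0.05 (9.93%, 11.4% and 15.2% of all tested genes).

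Directions turned as follows. Aqp4 was -0.058 with voom, -0.075 without KO 2 and KO 3, and -0.038, -0.042 and -0.018 without KO 2 and KO 4, KO 5 or KO 6, and ranged from -0.048 to 0.14 without 1 library. Car14 ranged from -0.014 to 0.19 without 1 library and was -0.00013 without KO 3 and KO 5, -0.035 without KO 3 and KO 6 and -0.016 with the GC offset. Glul ranged from -0.0096 to 0.18 without 1 library and was -0.046 without KO 2 and KO 5. Lhx2 was -0.024 with the GC offset. Hes1 was 0.025 in KO 2 and KO 3 against WT, 0.11 under the block, 0.10 with no block and 0.11 with the crossed pairing. All of these values are log2 fold changes, and none passed the threshold in the fit named. The causes were not tested, and some of these fits used fewer libraries or genes.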

Other observations

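Outside the rule for named genes, and chosen after their values were seen, are the following genes of the wider lists. Sfrp1, a secreted Wnt antagonist, was at 172 CPM in KO 3 and at 3.51 to 9.42 CPM in the other 7 libraries, and KO 3 is also the library with 5.10% of its counts in lens genes. Slc7a11 ranged from 8.62 to 12.2 CPM in KO 4 to KO 6 and from 16.9 to 20.5 CPM in WT, while KO 2 had 28.0 CPM and KO 3 had 33.7 CPM. Its log2 fold change over all 8 libraries was -0.02 (edgeR adjusted p = 0.978).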
